A study of Mus musculus with 63 samples.

Results

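Imprinted genes are genes of which mainly the copy inherited from one parent is transcribed. Chosen by name, 36 of them were followed, out of 24990 gene entries in each expression table, and grouped by chromosomal cluster and by the parental copy that is known to be used. In at least some tissues, 13 are expressed mainly from the maternal copy and 22 from the paternal copy, and Gnas gives rise to transcripts of either kind. The series belongs to a study of Chaserr, a long noncoding RNA made just upstream of Chd2, the gene of a chromatin remodeller, and asked what loss of Chaserr and the accompanying rise of Chd2 do to other genes. Total RNA from both parental copies was counted together in the deposited tables, so a value below says how much RNA of a gene was present and nothing about which copy made it.

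WT and Chaserr+/- libraries were made from whole E9.5 embryos, whole E13.5 embryos and adult brain, with 3 of each genotype per tissue. Mouse embryonic fibroblasts (mEFs), primary cultures grown from the trunk of E13.5 embryos after removal of head and liver, came in 4 sets, each with 3 WT libraries of its own: 3 Chaserr+/- (Het), 3 Chaserr-/- (KO), 2 Chd2m/m and 3 Chaserr-/- Chd2m/m (double mutant, DKO) libraries. The Chaserr null alleles lack the promoter and first exon and were carried by 2 founder lines with different deletions. For the double mutants the study deleted this part of Chaserr anew in a Chd2m/m mouse. The Chd2 m allele is a 2-base deletion that shifts the reading frame and leaves a hypomorph. The labels tie the WT mEFs of the Het and KO sets to the same pregnancy as their mutants. In the DKO set the labels name a Chaserr+/- Chd2+/m cross for the WT libraries and a Chd2+/m cross for the mutants. The remaining RNA libraries are 2 CHD2 immunoprecipitates, 2 IgG controls and 2 inputs of an RNA immunoprecipitation (RIP) from cells labelled Neuro2a, a mouse neuroblastoma line. ATAC-seq, which finds open chromatin, covered 12 libraries labelled mEF: 3 KO and 3 DKO, each with 3 WT. The ATAC-seq protocol in the labels describes DRGs extracted as tissue, which these libraries are not labelled as. The study injected CB6F1 Ola HSD mice, crossed their descendants to C57BL/6 Ola HSD, and used adults aged 4 to 15 weeks, and the sex of the mice sampled is not given in the sources used here.

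Imprinting rests on DNA methylation that is laid down in the germ line at imprinting control regions and kept through development, with ZFP57 and TRIM28 among the factors that protect it after fertilization. Most imprinted genes lie in clusters in which a noncoding RNA and the protein-coding genes around it are expressed from opposite parental copies, as with H19 and Igf2, Airn and Igf2r, Kcnq1ot1 and Cdkn1c, or Meg3 and Dlk1. Many of them set growth of the embryo and placenta, where paternally expressed genes such as Igf2 tend to promote growth and maternally expressed genes such as Igf2r, Cdkn1c, Grb10 and Phlda2 tend to restrain it, and many fall in level after birth. Others have known roles in the brain, among them Snrpn, Ndn, Magel2 and Ube3a of the region that is affected in Prader-Willi and Angelman syndromes.

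The stretches of DNA in front of 5 of these genes show how different their starts are, and the ATAC-seq peaks described later refer back to them. Each line gives the 250 bases upstream of an annotated start (GENCODE, mm9), 5′ to 3′ on the strand of the gene, and capitals mark CpG, the dinucleotide that carries DNA methylation. None of these windows overlaps an annotated exon. Zim1 (chr7:6649162-6649411, minus strand) had an open-chromatin peak at the start in all 12 ATAC-seq libraries.
Zim1: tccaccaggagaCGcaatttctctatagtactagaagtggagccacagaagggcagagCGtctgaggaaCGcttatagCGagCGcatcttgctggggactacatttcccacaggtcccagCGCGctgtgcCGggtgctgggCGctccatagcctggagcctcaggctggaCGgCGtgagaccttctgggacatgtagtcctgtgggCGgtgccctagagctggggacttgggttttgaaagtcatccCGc
Grb10 (chr11:11926328-11926577, minus strand, one of several annotated starts) had a peak that reached within 300 bases of a start in 11 libraries and H19 (chr7:149764049-149764298, minus strand) in 9.
Grb10: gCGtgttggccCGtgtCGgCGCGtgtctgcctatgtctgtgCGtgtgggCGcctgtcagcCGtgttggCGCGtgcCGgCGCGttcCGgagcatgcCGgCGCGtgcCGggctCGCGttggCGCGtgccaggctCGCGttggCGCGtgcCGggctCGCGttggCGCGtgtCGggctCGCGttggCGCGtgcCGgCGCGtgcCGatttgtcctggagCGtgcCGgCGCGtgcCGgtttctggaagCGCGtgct
H19: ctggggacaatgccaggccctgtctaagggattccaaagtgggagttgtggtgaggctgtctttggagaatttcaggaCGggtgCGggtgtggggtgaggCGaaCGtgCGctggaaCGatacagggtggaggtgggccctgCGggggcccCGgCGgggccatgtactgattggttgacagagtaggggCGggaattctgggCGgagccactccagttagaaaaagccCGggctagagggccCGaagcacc
Rian (chr12:110841905-110842154, plus strand) and Slc22a18 (chr7:150659376-150659625, plus strand) had a peak in none.
Rian: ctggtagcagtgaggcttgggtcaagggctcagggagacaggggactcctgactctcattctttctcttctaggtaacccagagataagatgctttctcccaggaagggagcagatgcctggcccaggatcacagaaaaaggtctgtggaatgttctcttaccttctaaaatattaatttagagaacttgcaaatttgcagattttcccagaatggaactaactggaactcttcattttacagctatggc
Slc22a18: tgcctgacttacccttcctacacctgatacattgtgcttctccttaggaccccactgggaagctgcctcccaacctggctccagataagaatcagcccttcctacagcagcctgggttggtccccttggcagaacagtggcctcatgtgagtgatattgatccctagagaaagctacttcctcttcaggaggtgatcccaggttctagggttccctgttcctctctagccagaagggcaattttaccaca
These windows hold 13 CpG in Zim1, 47 in Grb10 and 13 in H19, and 0 in both Rian and Slc22a18. They were picked to show starts with and without a peak, and over the other windows the number of CpG and the peaks did not go together throughout. Mirg has 10 CpG and a peak in none. Gnas has a peak in all 12 libraries and 1 CpG in the window of the start used, which is 1 of 16 annotated and lies near the 3′ end of the gene. In RefSeq promoters (GRCm38.p6, 250 bases before to 50 after a start), 30 of the 36 genes matched an entry, with a median of 14 CpG in 300 bases against 7 over all 27025 promoters. The RefSeq promoter of Gnas held 27 CpG, so its low number above depended on the start used. The letters TGCCGC, the core of the motif bound by ZFP57, were found on either strand in the RefSeq promoters of 6 of the 30, namely Copg2, Grb10, Meg3, Nnat, Plagl1 and Zim1, which is 20%, against 11.6% of all promoters. In the mm9 windows of 250 bases they were found in Copg2, Meg3, Plagl1, Peg10, Sgce, Mest and Snrpn, and not in Grb10, Nnat or Zim1. The genes with these letters thus depended on the start and window used.

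Total expected counts per library ran from 21589914 to 31293043 in E9.5 embryos, 24875735 to 29806447 in E13.5 embryos, 13956005 to 33191983 in brain, 9672603 to 16983396 in mEFs and 7621292 to 20050497 in RIP, and no 2 libraries held identical values. The targeted gene followed the labels: Chaserr was listed at 0 TPM (a level per transcript length and library size) in all 3 KO libraries against 8.63 to 13.8 TPM in their WT mEFs, and at 0 to 0.23 TPM in DKO against 80 to 93.7 TPM. In Het libraries it was at 21.4 to 28.7 TPM against 40.2 to 48.4 TPM in WT at E9.5, 14.1 to 23.5 against 30 to 36 TPM in brain and 10.4 to 15.8 against 18.4 to 22.2 TPM in mEFs. At E13.5 it was at 29.9 to 42.5 against 42.1 to 64.6 TPM, where Het replicate 3 lay just above WT replicate 1. Chd2 was higher in every Het, KO and DKO library than in any WT library of its set. The m allele of Chd2 changes the reading frame and is not checked by an RNA level. Summed TPM of the 8 neuron and glia markers was 10264 to 15934 in WT brain and 69.1 to 81 in WT E13.5 embryos, and that of 7 fibroblast markers in mEFs was 5815 to 9540. Brain libraries 1 and 2 of both genotypes were made with a SENSE kit and brain library 3 with TruSeq. P-values from a handful of libraries per group measure the spread between these libraries. In these bulk samples fewer cells of a type and less RNA per cell cannot be told apart.

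Of the 36 genes, 32 reached a mean of 1 TPM in WT E9.5 embryos, 34 in WT E13.5 embryos, 32 in WT brain and 30 to 32 in the 4 WT mEF sets. They were abundant genes: their median level was 48.7 TPM at E9.5, 44.5 TPM at E13.5 and 28.6 TPM in brain, where the median of all expressed genes was 19.7, 19.3 and 18.6 TPM. Together they made up 0.942% of all TPM in WT E9.5 embryos, 1.56% in WT E13.5 embryos, 0.643% in WT brain and 0.732 to 1.15% in the WT mEF sets. H19, Gnas, Igf2, Nnat and Mest headed the list at E13.5, Gnas, Snrpn, Meg3, Nnat and Rian in brain, and Igf2, Gnas and H19 in every WT mEF set. Ascl2, a trophoblast transcription factor, stayed under 1 TPM on average in all 17 groups, and the 6 trophoblast markers summed to at most 2.2 TPM in any WT embryo, brain or mEF library.

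**Figure D1:**
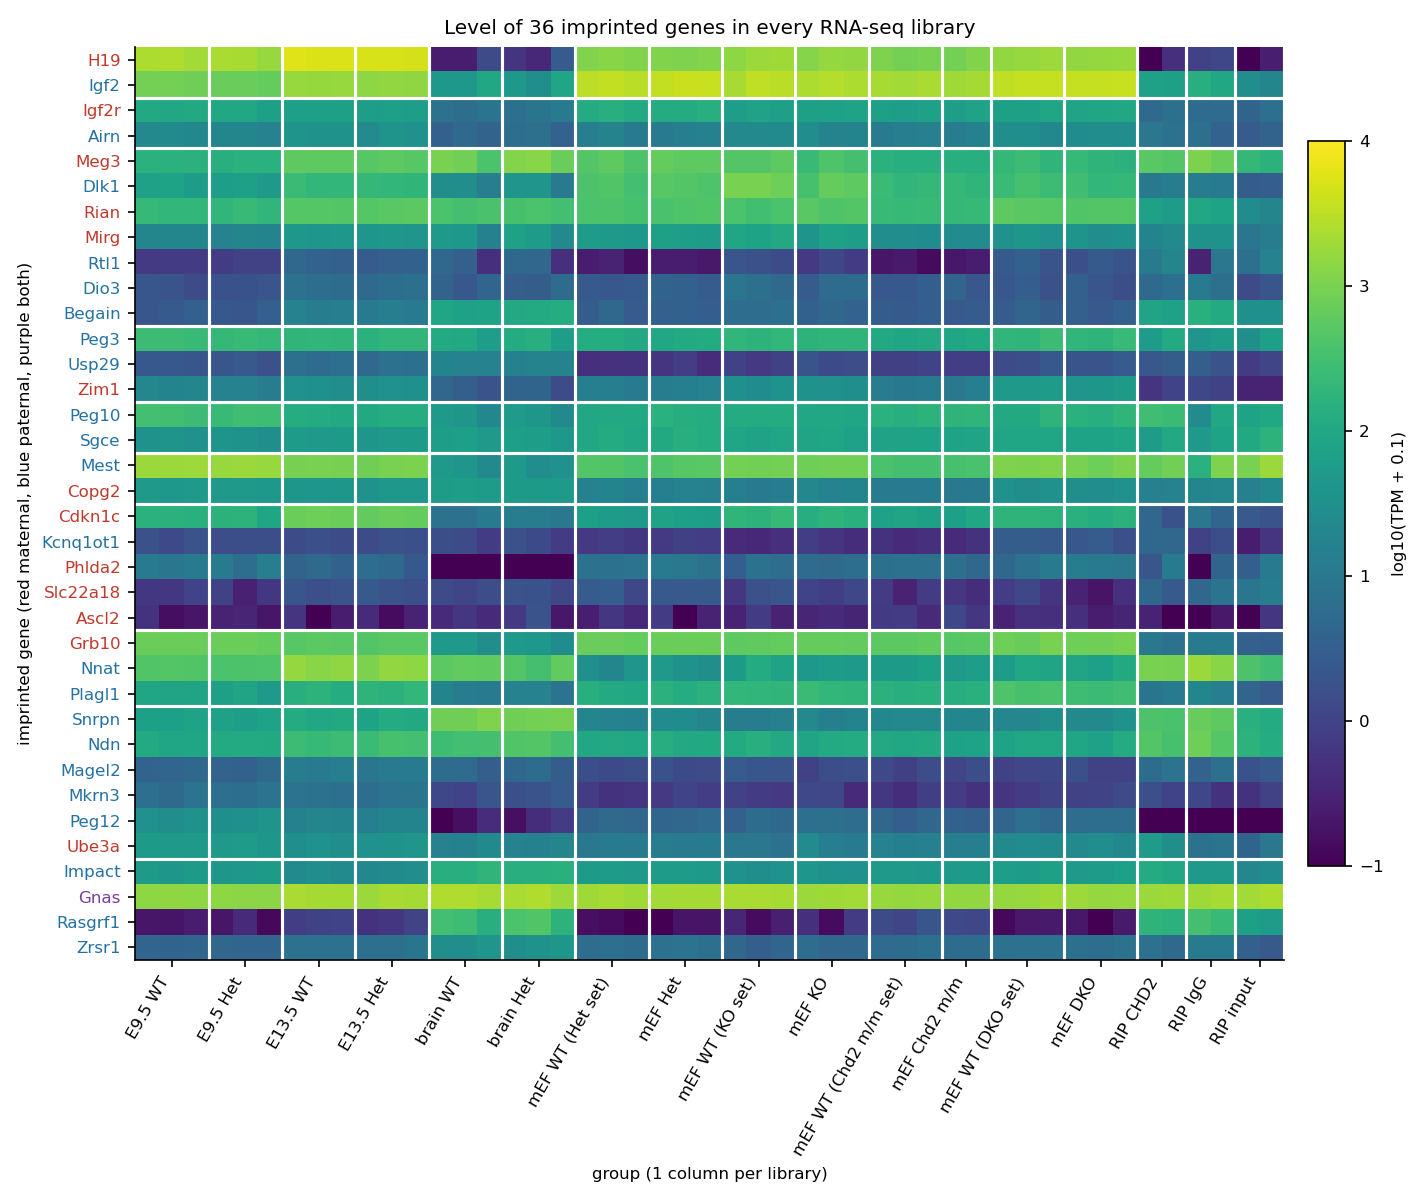
Level of each of the 36 imprinted genes (lines) in each of the 47 RNA libraries (columns), as log10 of TPM plus 0.1, with white lines between groups and between clusters, and names in red for maternally, blue for paternally expressed genes and purple for Gnas. H19 and Phlda2 go dark in brain and Rasgrf1 is bright in brain and the RIP libraries, while WT and mutant columns of a tissue look alike.

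The comparison of WT E13.5 with WT E9.5 embryos asked how these genes move through mid-gestation, within a single kit. Of 35 genes that could be tested, 33 differed, 22 higher and 11 lower at E13.5 (edgeR, adjusted p under 0.05). Stage differences were the rule in these embryos, since 80.4% of all 15761 genes tested differed, 42.1% higher and 38.3% lower, and the share of imprinted genes was 94.3%. Their median log2 fold change was 0.49 against 0.06 for all genes, and the median size of the change, regardless of sign, was 0.99 against 0.67 log2 units. In library-scaled counts the stages did not overlap for 32 of the 35 imprinted genes and for 82.8% of all genes. Maternally expressed genes went both ways (7 higher and 5 lower of 12), as did paternally expressed ones (14 higher and 6 lower of 22). Fold changes below are from edgeR on library-scaled counts, so they need not equal the ratio of the TPM levels printed beside them.

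All 7 genes of the Dlk1-Dio3 cluster on chromosome 12 rose, with a median log2 fold change of 1.58. Rtl1, a retrotransposon-derived gene needed in the placenta, had 0.62, 0.68 and 0.67 TPM in the E9.5 libraries and 4.59, 3.59 and 3.36 TPM at E13.5. The groups did not overlap, and the log2 fold change was 2.30 ± 0.16 (SE; edgeR adjusted p = 7.22e-07, n = 3 against 3). Begain, a postsynaptic protein gene at the proximal end of the cluster, went from 2.05, 2.48 and 3.24 TPM to 16.2, 12.7 and 13.7 TPM, a log2 fold change of 2.2 ± 0.16 (edgeR adjusted p = 9.94e-07). Dio3, the deiodinase that inactivates thyroid hormone, went from 2.09, 1.86 and 1.36 TPM to 7.27, 6.26 and 5.8 TPM, a log2 fold change of 1.61 ± 0.19 (edgeR adjusted p = 3.65e-05). Every E13.5 library again lay above every E9.5 library for both. Meg3, the maternally expressed noncoding RNA, had 153 to 166 TPM at E9.5 and 566 to 574 TPM at E13.5, and Dlk1, a paternally expressed membrane protein of the Notch ligand family, had 58.2 to 78.9 and 201 to 252 TPM. Rian and Mirg, noncoding RNAs that carry small nucleolar RNAs and microRNAs, went from a mean of 211 to 467 TPM and of 19.6 to 45 TPM.

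In the Igf2-H19 and Kcnq1 clusters on chromosome 7, H19, Igf2 and Cdkn1c rose. Cdkn1c, the cyclin-dependent kinase inhibitor p57, had 157, 163 and 147 TPM at E9.5 and 748, 784 and 744 TPM at E13.5, a log2 fold change of 2.03 ± 0.06 (edgeR adjusted p = 8.92e-09). H19, the maternally expressed noncoding RNA next to Igf2, had 2397, 2533 and 2051 TPM against 5581, 5478 and 5544 TPM, and at E13.5 its mean of 5534 TPM was the 10th highest of all entries. Igf2, the fetal growth factor, had 894, 896 and 812 TPM against 1664, 1585 and 1674 TPM. Within the Kcnq1 cluster the other tested genes did not share one direction. Slc22a18, a transporter gene, rose with Cdkn1c, from a mean of 0.67 to 1.79 TPM. Phlda2, a pleckstrin homology domain protein that limits placental growth, fell from 11.6, 9.06 and 10.8 TPM to 3.77, 5.24 and 3.43 TPM, a log2 fold change of -1.59 ± 0.21 (edgeR adjusted p = 7.38e-05). Kcnq1ot1, the antisense noncoding RNA of the cluster, had a log2 fold change of -0.39 (edgeR adjusted p = 0.0247) with overlapping TPM of 1.16 to 1.84 and 1.3 to 1.54.

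The largest falls of abundant genes were in paternally expressed genes outside the Dlk1-Dio3, Igf2-H19 and Kcnq1 clusters. Peg10, a retrotransposon-derived gene of placental development, had 325, 311 and 274 TPM at E9.5 and 122, 119 and 108 TPM at E13.5, a log2 fold change of -1.63 ± 0.08 (edgeR adjusted p = 9.68e-08), whereas Sgce, the sarcoglycan gene that starts beside it in the opposite direction, rose by 0.30 on the log2 scale. Impact, a regulator of the translational stress response, had 52.4, 44.5 and 52.3 TPM against 23.7, 28 and 24.9 TPM, a log2 fold change of -1.21 ± 0.08 (edgeR adjusted p = 5.45e-07). Peg12, an intronless gene near Ndn, had 33.2, 29.9 and 35 TPM against 15.7, 19.2 and 17.5 TPM, a log2 fold change of -1.16 ± 0.09 (edgeR adjusted p = 1.36e-06). In none of these 3 did the stages overlap. Mest, a hydrolase-like protein of mesodermal tissue, fell from 1776 to 1833 TPM at E9.5 to 956 to 994 TPM at E13.5, and its antisense neighbour Copg2, a coat protein subunit, fell by 0.37 on the log2 scale.

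The Snrpn-Ube3a region split, with 3 of 6 genes higher and 2 lower. Snrpn, a splicing protein, rose from a mean of 71 to 107 TPM, Ndn, a growth suppressor of neurons, from 96.3 to 254 TPM, and Magel2, a ubiquitin ligase regulator, from 4.22 to 12.8 TPM. Peg12 and Ube3a, the maternally expressed ubiquitin ligase of Angelman syndrome, fell, and Ube3a went from 50.9 to 31.7 TPM. Mkrn3, a ring finger protein that holds back puberty, had 6.58 and 7.31 TPM and did not pass the test (edgeR adjusted p = 0.527). Of the Peg3 cluster, Peg3, a zinc finger protein, fell from 258 to 189 TPM, while Usp29, a ubiquitin protease, rose from 2.19 to 6.33 TPM and Zim1, a maternally expressed zinc finger gene, from 19.5 to 31.7 TPM. The mannose 6-phosphate and IGF2 receptor Igf2r fell from 106 to 68.2 TPM. Airn, the noncoding RNA that overlaps it in antisense, had 21.7 to 24.6 TPM at E9.5 and 34.9 to 38.8 TPM at E13.5 but a log2 fold change of -0.13 on the count scale (edgeR adjusted p = 0.279), so that its direction depended on the scale.

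Among the genes outside clusters, Nnat, a small membrane protein of differentiating neurons, rose from 447 to 1470 TPM, Plagl1, a zinc finger factor that restrains proliferation, from 86.1 to 144 TPM, Gnas, the stimulatory G protein subunit, from 1413 to 2210 TPM, and Zrsr1, a U2AF-related splicing factor, from 4.14 to 7.45 TPM. Grb10, an adaptor that dampens insulin and IGF signalling, fell from 740 to 527 TPM. Rasgrf1, an exchange factor of neuronal Ras signalling, rose while still under 1 TPM on average at both stages.

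**Figure D2:**
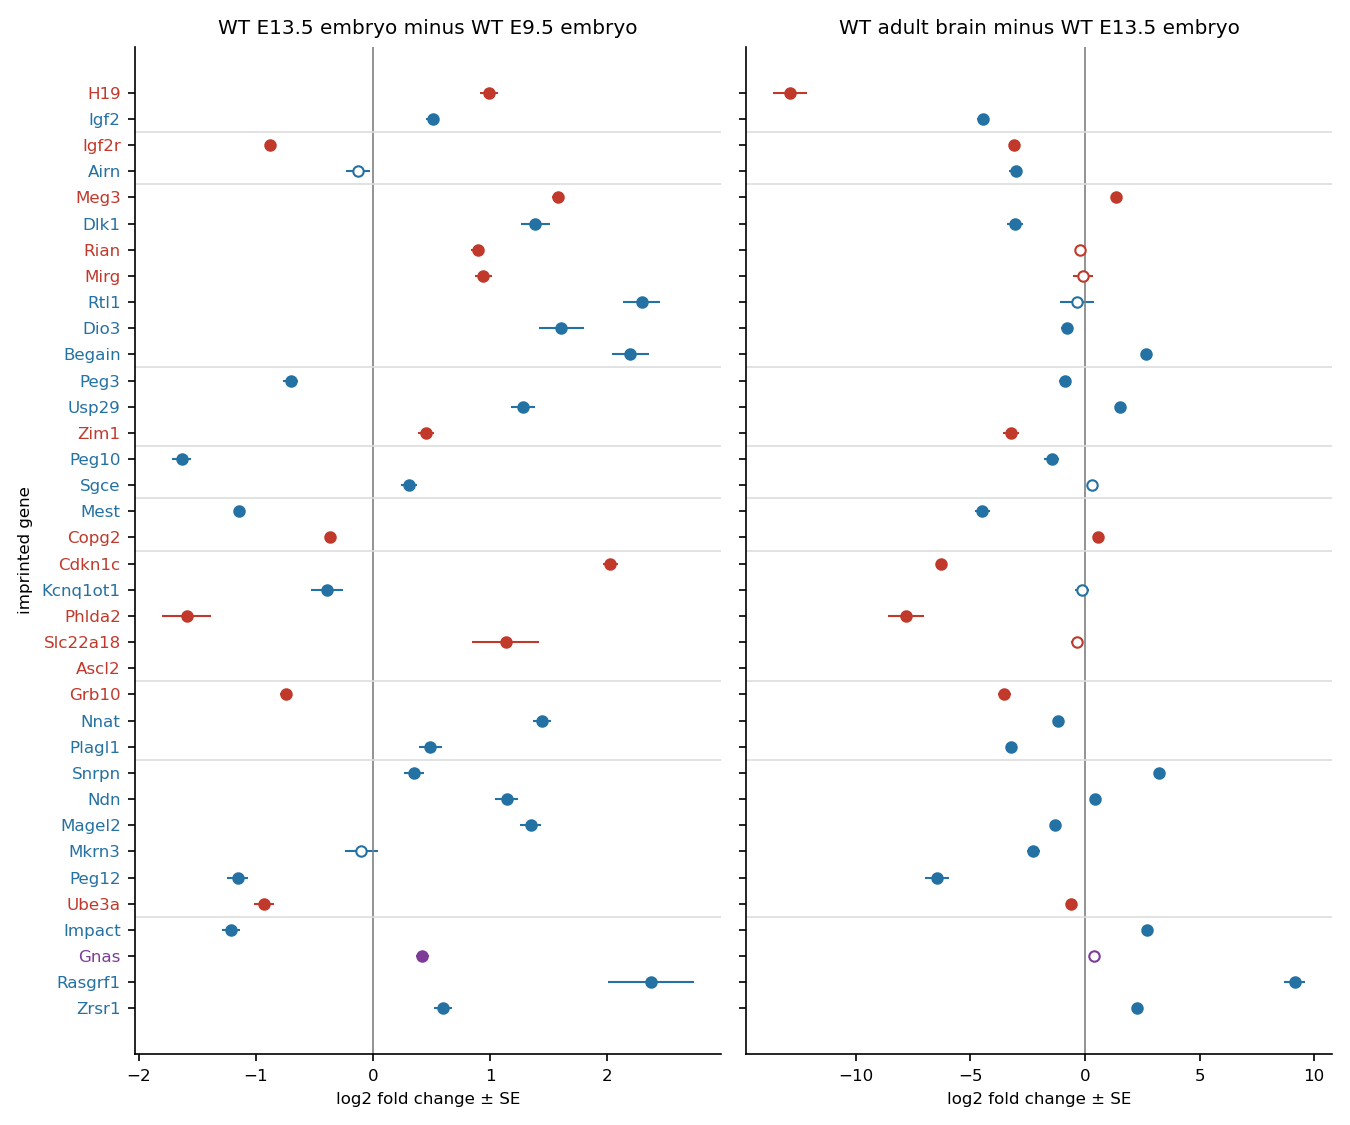
Log2 fold change with SE of each imprinted gene between WT groups of 3 libraries each, E13.5 minus E9.5 embryos in one panel and adult brain minus E13.5 embryos in the other, filled where the edgeR adjusted p is under 0.05 and open where it is not. The 7 genes of the Dlk1-Dio3 cluster all lie above 0 between embryonic stages and on both sides of 0 between embryo and brain, where H19 is lowest at -12.88 and Rasgrf1 highest at 9.15.

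Adult WT brain was set against WT E13.5 embryos as the most distant pair of WT tissues. Of 35 genes tested, 28 differed, 9 higher and 19 lower in brain (edgeR), a share of 80% where 71.1% of 16215 genes differed, 35.2% higher and 35.9% lower. The median log2 fold change was -0.79 against -0.03 over all genes, and the median size was 2.27 against 1.09 log2 units. H19 had 5581, 5478 and 5544 TPM in the embryos and 0.15, 0.14 and 1.32 TPM in brain, a log2 fold change of -12.88 ± 0.74 (edgeR adjusted p = 7.76e-06). The brain library with the highest H19 was the one made with TruSeq, the kit of the embryos, and between TruSeq libraries alone the log2 fold change was -11.96. Cdkn1c had 748, 784 and 744 TPM against 7.48, 7.61 and 11.2 TPM, a log2 fold change of -6.29 ± 0.18 (edgeR adjusted p = 1.42e-06). Peg12 was nearly absent, with 0, 0.06 and 0.33 TPM in brain against 15.7 to 19.2 TPM and a log2 fold change of -6.46 ± 0.53 (edgeR adjusted p = 4.02e-05), which was -5.66 between TruSeq libraries and -8.78 without the TruSeq brain. Phlda2 had no count in any of the 3 brain libraries against 102 counts over the 3 embryos, and was at least 21.4-fold lower when the brain group was set to the limit of 3 counts that a count of 0 allows (edgeR adjusted p = 0.000548).

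Igf2 fell to 45.8, 46.4 and 100 TPM in brain, Igf2r from 68.2 to 7.28 TPM, Airn from 36.3 to 4.13 TPM, Mest from 971 to 39 TPM, Grb10 from 527 to 42.9 TPM, Plagl1 from 144 to 14 TPM, Dlk1 from 221 to 24.3 TPM and Zim1 from 31.7 to 3.11 TPM. Peg10, Peg3, Nnat, Magel2, Mkrn3, Dio3 and Ube3a fell as well. In bulk brain the total level of Grb10 was low although this gene is known to be made from the paternal copy in neurons and from the maternal copy elsewhere, a distinction these totals do not carry.

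Of the 9 genes that rose in brain 7 are paternally expressed, as are 12 of the 19 that fell and 22 of all 36. Rasgrf1 had 0.76, 0.83 and 0.91 TPM in the embryos and 323, 286 and 144 TPM in brain, a log2 fold change of 9.15 ± 0.46 (edgeR adjusted p = 4.53e-06), which was 8.27 between TruSeq libraries. Snrpn had 119, 94.1 and 108 TPM against 833, 842 and 1062 TPM, a log2 fold change of 3.22 ± 0.15 (edgeR adjusted p = 3.33e-06). Impact had 23.7, 28 and 24.9 TPM against 138, 133 and 190 TPM, a log2 fold change of 2.72 ± 0.15 (edgeR adjusted p = 6.24e-06). Impact thus fell between the embryonic stages, and its 3 brain levels lay above those of all 6 WT embryos. Begain had 16.2, 12.7 and 13.7 TPM against 90, 74.1 and 80.8 TPM, a log2 fold change of 2.66 ± 0.15 (edgeR adjusted p = 7.45e-06). Zrsr1, Usp29, Ndn, Copg2 and Meg3 were the others that rose, of which Meg3 and Copg2 are maternally expressed.

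Several genes of the Dlk1-Dio3 cluster had other levels with the other kit in brain, with 1 TruSeq library to compare, and Rian did not, at 390 and 337 TPM with SENSE and 363 TPM with TruSeq. Meg3 had 994 and 870 TPM in the SENSE brains and 388 TPM in the TruSeq brain, and its log2 fold change against the embryos was 1.37 with all 3 brains and 0.72 between TruSeq libraries. Mirg had 50, 45.9 and 15.6 TPM and Rtl1 4.67, 3.31 and 0.39 TPM in the same order. Dlk1 was at -3.04 with all brains and at -3.96 between TruSeq libraries. Rtl1 did not pass the test with all brains, with a log2 fold change of -0.33, and was at -3.22 between TruSeq libraries, where Mirg was at -1.47 instead of -0.10 and Kcnq1ot1 at -1.03 instead of -0.14. Sgce, which also did not pass, was at 0.32 with all brains and at -0.10 between TruSeq libraries. Rian was at -0.22 and Slc22a18 at -0.36 without passing, and Gnas at 0.37 (edgeR adjusted p = 0.0885). With the kit as a covariate 31 of the 35 genes differed, as did 12741 of 16215 genes.

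WT mEFs came from the same tissue and kit in all 4 sets, so the level of each gene in the 4 WT groups gives the spread between cultures that carry no mutation. The spread was wide: 30 of 35 genes tested differed between sets (edgeR F test), 85.7% where 88.1% of 14437 genes differed, and the median range over the 4 sets was 1.03 against 0.91 log2 units. Set, pregnancy and batch cannot be told apart. The WT of the DKO set had the highest mean TPM for 18 of the 36 genes, the WT of the KO set for 12, and the other 2 sets for 3 each. Rasgrf1 had the widest range, 4.13 log2 units, at 1.46 TPM in the WT of the Chd2m/m set and at most 0.15 TPM in the others (edgeR adjusted p = 3.13e-07). Rtl1 had 2.61 and 1.63 TPM in the WT of the DKO and KO sets and 0.13 and 0.09 TPM in the WT of the Het and Chd2m/m sets, a range of 3.98 log2 units (edgeR adjusted p = 1.26e-07). Kcnq1ot1 had 2.73 TPM in the WT of the DKO set and 0.33 to 0.61 TPM in the other 3, a range of 2.92 (edgeR adjusted p = 6.75e-10), while its target Cdkn1c had 57.8 to 195 TPM in an order of its own, with the highest level in the WT of the KO set.

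Within the Dlk1-Dio3 cluster the sets ranked differently for different genes. Dlk1 was highest in the WT of the KO set at 914 TPM and lowest in the WT of the Chd2m/m set at 221 TPM, a range of 1.76 log2 units (edgeR adjusted p = 4.88e-08). Meg3 had 499 and 485 TPM in the WT of the KO and Het sets and 144 and 224 TPM in the WT of the Chd2m/m and DKO sets. Rian was highest in the WT of the DKO set at 537 TPM, and Mirg and Dio3 in the WT of the KO set at 90.4 and 7.06 TPM. Zim1 had 51.2 TPM in the WT of the DKO set, 31.5 TPM in that of the KO set and 11.8 and 13.4 TPM in the others, a range of 1.80 (edgeR adjusted p = 3.99e-09). Usp29 had 0.41 to 1.69 TPM, a range of 1.78 (edgeR adjusted p = 4.29e-05), and Dio3 a range of 1.68 (edgeR adjusted p = 5.5e-05). Mest had 343 to 1087 TPM and Plagl1 118 to 373 TPM. The 5 tested genes without a difference between sets were Igf2 (2205 to 3535 TPM, edgeR adjusted p = 0.0575), Grb10, Phlda2, Mkrn3 and Peg12. Compared with E13.5 embryos, as levels with no test since the kits differ, cultured WT mEFs held more Igf2 in every set and less Nnat, at 30.9 to 81.5 TPM against 1470 TPM.

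**Figure D3:**
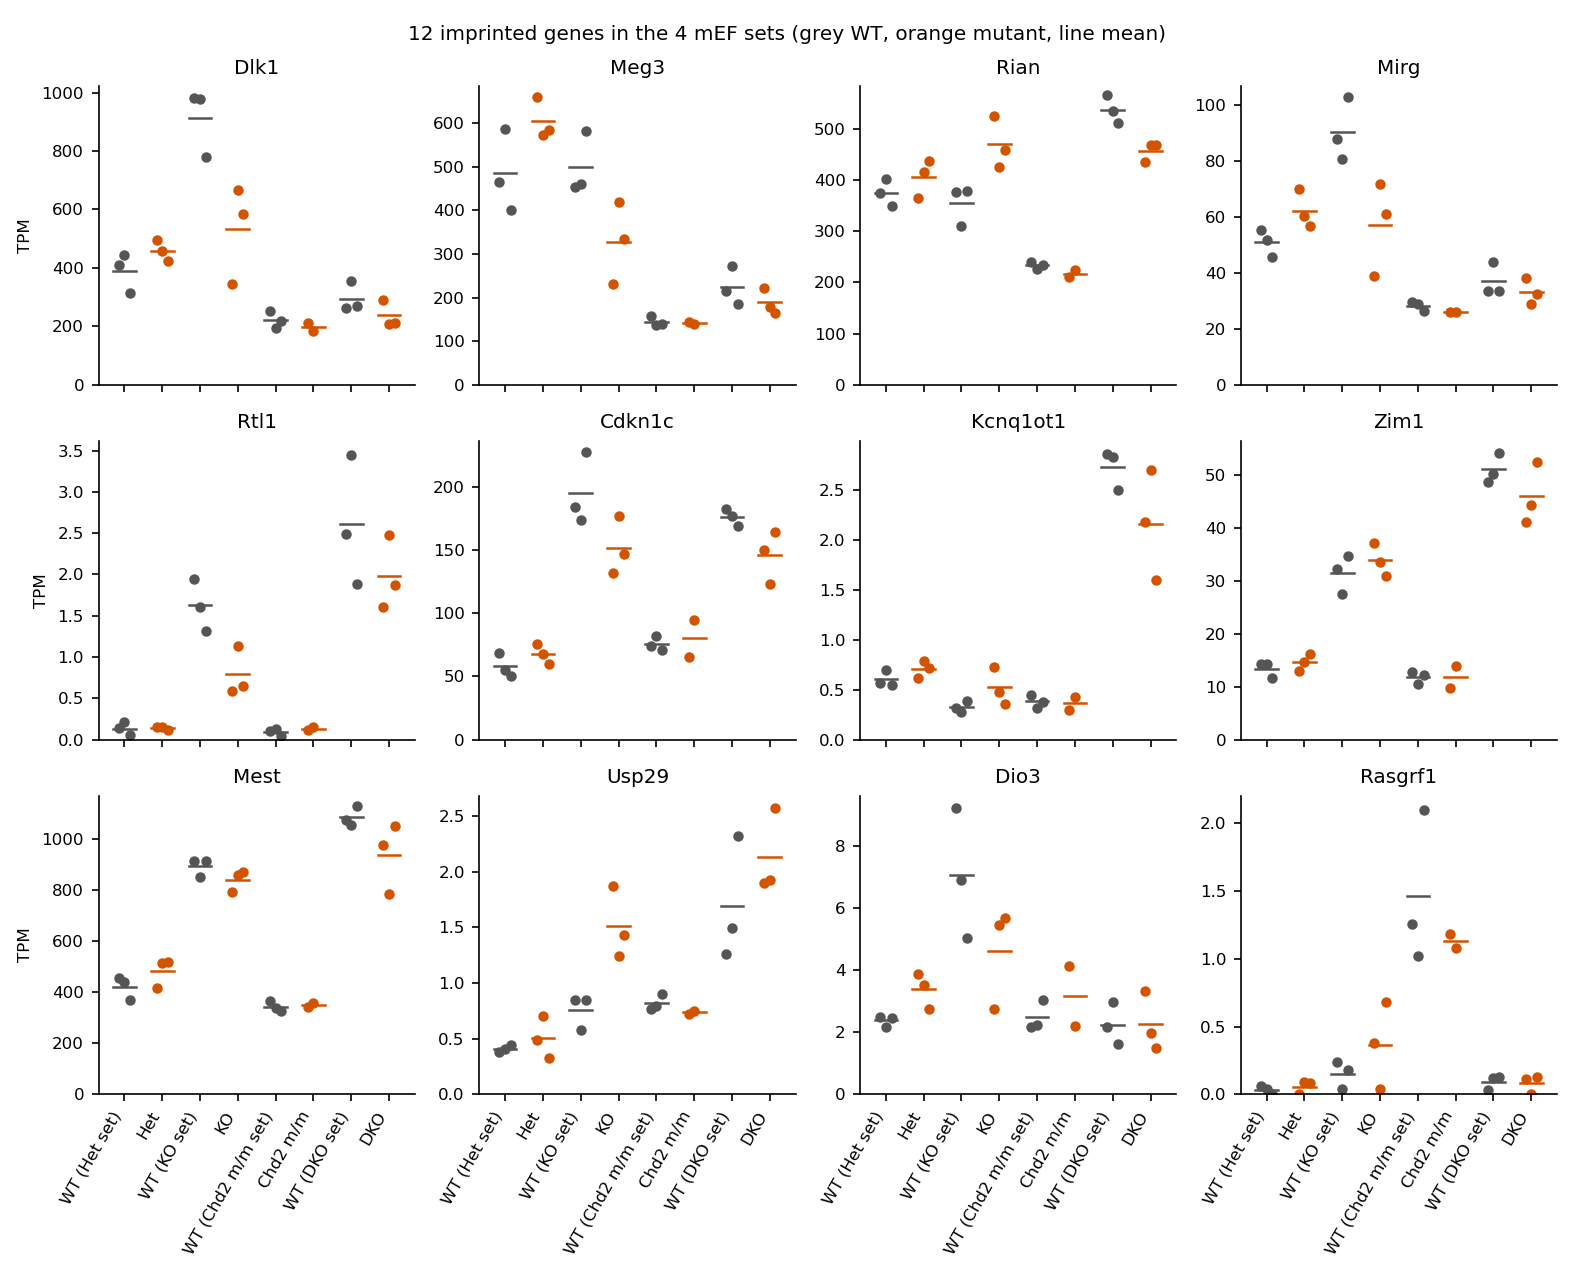
TPM per library of 12 imprinted genes in the 8 mEF groups, grey for WT and orange for mutants, with a line at the group mean. For Dlk1, Meg3, Rtl1, Kcnq1ot1 and Zim1 the distance between WT groups of different sets exceeds that between mutant and WT of 1 set.

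In Chaserr+/- samples none of the 36 genes passed the edgeR test against WT in any tissue, and few genes of the whole table did. At E9.5, 0 of 34 tested were called by edgeR and 1 (Igf2) by DESeq2, where edgeR called 0% of 14500 genes and DESeq2 5 of 14496. By edgeR 4 of the 34 imprinted genes had an unadjusted p under 0.05, against 3.12% of all genes. In scaled counts, Het and WT did not overlap for 6 of the 34 imprinted genes, against 9.63% of all genes. Igf2 had 894, 896 and 812 TPM in WT and 716, 725 and 644 TPM in Het embryos, so the groups did not overlap, with a log2 fold change of -0.32 ± 0.07 (edgeR adjusted p = 1). Zim1 had 20.8, 18.1 and 19.5 TPM against 16, 16.2 and 12.8 TPM, a log2 fold change of -0.35 (edgeR adjusted p = 1), and Ndn had a log2 fold change of 0.24. Het E9.5 replicate 3 had a summed level of 8 muscle markers of 42.8 TPM where the WT libraries had 717 to 1028 TPM, and the log2 fold change of Igf2 was -0.29 without it. The 95% interval of the fold change lay within 2-fold in both directions for 33 of the 34 genes.

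At E13.5, 0 of 35 were called by edgeR and 1 (Rian) by DESeq2, where edgeR called 0.0314% of 15946 genes and DESeq2 21 of 15895. By edgeR 7 of the 35 imprinted genes were under an unadjusted 0.05, against 6.34% of all genes. In scaled counts 3 of the 35 imprinted genes did not overlap, against 12.8% of all genes. Rian had 477, 470 and 454 TPM in WT and 472, 526 and 538 TPM in Het embryos, a log2 fold change of 0.19 (edgeR adjusted p = 0.732), with groups that overlapped in TPM and not in scaled counts. Ndn had 268, 228 and 266 TPM against 252, 344 and 321 TPM, a log2 fold change of 0.31, and Plagl1 a log2 fold change of 0.40 (edgeR adjusted p = 0.732 for both). Het E13.5 replicate 3 held 23.7 TPM of trophoblast markers and replicate 1 held 5299 TPM of fetal liver markers, where WT embryos had at most 0.5 and 1542 TPM, and without any single library the count of imprinted genes called was 0 as well. The interval lay within 2-fold for 34 of the 35.

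In brain, 0 of 32 were called by edgeR or DESeq2, where edgeR called 0% of 14911 genes and DESeq2 1 of 14904. By edgeR only Begain of the 32 had an unadjusted p under 0.05, against 2.47% of all genes. In scaled counts 2 of the 32 imprinted genes did not overlap, against 9.21% of all genes. Begain had 90, 74.1 and 80.8 TPM in WT and 104, 112 and 127 TPM in Het brains, which did not overlap, with a log2 fold change of 0.47 ± 0.16 (edgeR adjusted p = 1). This fit took no account of the pairing of the brains by number, which also holds the kit, and had a median SE of 0.33 against 0.10 at E9.5 and 0.09 at E13.5, with an interval within 2-fold for 16 of the 32 genes. With the replicate block the median SE was 0.13, 1954 instead of 368 of the 14911 genes had an unadjusted p under 0.05, and so did 5 imprinted genes, of which 0 were called (lowest edgeR adjusted p = 0.315). Meg3 had 994, 870 and 388 TPM in WT and 1206, 1315 and 719 TPM in Het brains in the order of their numbers, higher in Het in all 3 pairs, with a log2 fold change of 0.50 ± 0.11 with the block (edgeR adjusted p = 0.315).

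In Het mEFs, 0 of 33 were called by edgeR or DESeq2, where edgeR called 0.173% of 13282 genes and DESeq2 99 of 13281. By edgeR 5 of the 33 imprinted genes were under an unadjusted 0.05, against 8.36% of all genes. In scaled counts 7 of the 33 imprinted genes did not overlap, against 14.5% of all genes. Peg10 had 96.3, 106 and 108 TPM in WT and 155, 129 and 122 TPM in Het mEFs, without overlap, and a log2 fold change of 0.36 ± 0.10 (edgeR adjusted p = 0.294). Snrpn was at 0.46 (edgeR adjusted p = 0.356) and Meg3 at 0.30 (edgeR adjusted p = 0.504). Of the 33 fold changes 26 were above 0, with a median of 0.18 against 0.00 over all genes.

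Chaserr-/- mEFs were the group with the most genes near the threshold. Of 33 imprinted genes tested, 0 were called by edgeR where 0.118% of 13580 genes were, with 15 under an unadjusted 0.05, as were 33.9% of all genes, and a lowest adjusted p of 0.0538. This count turned on the settings: DESeq2 called 11, edgeR without a filter on low counts or with at least 10 counts in every library 3, and edgeR without KO replicate 1 called 2 and without KO replicate 2 called 8. The number of all genes called moved in the same way, from 16 to 2607 with DESeq2, 1434 and 1383 with the other filters, and 1016 and 2827 without those KO libraries.

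In the Dlk1-Dio3 cluster 6 of 7 genes had a fold change below 0 in KO mEFs, where the median log2 fold change of all genes was -0.02. In scaled counts, KO and WT did not overlap for 14 of the 33 imprinted genes tested and for 43.2% of all genes. Dlk1 had 983, 979 and 780 TPM in WT and 347, 667 and 585 TPM in KO mEFs, without overlap, and a log2 fold change of -0.84 ± 0.22 (edgeR adjusted p = 0.0538). Rtl1 had 1.95, 1.61 and 1.32 TPM against 0.59, 1.13 and 0.65 TPM, a log2 fold change of -1.09 ± 0.32 (edgeR adjusted p = 0.0592). Mirg was at -0.73 (edgeR adjusted p = 0.0625), Begain at -0.70 (0.0642), Dio3 at -0.67 (0.172) and Meg3 at -0.51 (0.0753), whereas Rian, which lies between Meg3 and Mirg, was at 0.33 (0.115). With a correction for GC content and transcript length all 7 were below 0, Rian at -0.17, Dlk1 at -0.58 and Begain at -0.14, so the direction of Rian depended on this correction. KO replicate 1 had the lowest Dlk1 of the 3, and without it the log2 fold change was -0.60. The falls were not particular to KO mEFs. In DKO mEFs Meg3 (-0.29), Dlk1 (-0.32), Rian (-0.24), Mirg (-0.16), Rtl1 (-0.38) and Begain (-0.11) were below 0 as well. Dio3 was at 0.03 there. In Chd2m/m mEFs Meg3 (-0.02), Dlk1 (-0.14), Rian (-0.10), Mirg (-0.11) and Begain (-0.13) were below 0, and Dio3 was at 0.37. None of these was called by edgeR.

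Outside that cluster, Usp29 had 0.85, 0.58 and 0.85 TPM in WT and 1.87, 1.24 and 1.43 TPM in KO mEFs, a log2 fold change of 0.92 ± 0.26 (edgeR adjusted p = 0.0566). Ube3a had 9.66, 9.36 and 7.43 TPM against 25.7, 13.4 and 12 TPM, a log2 fold change of 0.89 (edgeR adjusted p = 0.0624) that was 0.48 without KO replicate 1. Peg10 was at -0.38 (edgeR adjusted p = 0.061) and was the gene that passed with the GC and length correction, at -0.46 (edgeR adjusted p = 0.0473). Cdkn1c at -0.43 and Gnas at -0.39 moved to 0.03 and 0.00 under that correction. Some marker lists had lower summed TPM in every KO library than in any WT library of the set. These were muscle (498 to 585 against 721 to 1458), erythroid (41.9 to 49 against 166 to 351) and macrophage markers (428 to 454 against 552 to 691). Chondrocyte markers were lower too (29.7 to 73.8 against 75.9 to 114). Fibroblast markers overlapped (6467 to 7857 against 7762 to 8769). Fetal liver, neuron and glia, trophoblast and neuroblastoma markers overlapped as well. The part of these markers in the values of the imprinted genes was not tested.

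In Chd2m/m mEFs 0 of 34 were called by edgeR and 1 by DESeq2, where edgeR called 0.0145% of 13777 genes and DESeq2 8 of 13775. By edgeR 4.51% of all genes were under an unadjusted 0.05, against 2 of the 34 imprinted genes. These were Ndn, with 103, 94.2 and 107 TPM in 3 WT and 71.3 and 78.1 TPM in 2 mutant libraries and a log2 fold change of -0.43 ± 0.06 (edgeR adjusted p = 0.105), and Peg10, at 0.21 (edgeR adjusted p = 0.937). Ndn did not overlap between the groups, and it was the gene that DESeq2 called. In scaled counts 10 of the 34 imprinted genes did not overlap, against 20.7% of all genes.

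In DKO mEFs 0 of 33 were called by edgeR and 1 by DESeq2, where edgeR called 0.0924% of 14076 genes and DESeq2 222 of 14073. By edgeR 4 of the 33 imprinted genes were under an unadjusted 0.05, against 9.89% of all genes. In scaled counts 3 of the 33 imprinted genes did not overlap, against 13.8% of all genes. Plagl1 had 413, 348 and 359 TPM in WT and 286, 261 and 295 TPM in DKO mEFs, without overlap, and a log2 fold change of -0.42 ± 0.10 (edgeR adjusted p = 0.171). DESeq2 called Plagl1. Rian had 566, 534 and 512 TPM against 435, 468 and 468 TPM and a log2 fold change of -0.24 (edgeR adjusted p = 0.4), and Cdkn1c was at -0.28 (edgeR adjusted p = 0.415).

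KO and DKO mEFs both lack Chaserr, on a WT and on a Chd2m/m background. The difference of their effects, each against its own WT, was tested directly. The WT of the DKO set is also WT for Chd2, so the DKO effect holds that of the Chd2 mutation as well. The effects come from different sets, and 88.1% of genes tested differed among the WT mEF sets. Of 34 genes, 0 differed by edgeR and 5 by DESeq2, where edgeR called 0.112% of 14273 genes and DESeq2 1510 of 14266. By edgeR 9 of the 34 imprinted genes and 3738 of the 14273 genes had an unadjusted p under 0.05. Rian came nearest, with a difference of 0.58 ± 0.16 log2 units (edgeR adjusted p = 0.0781), made up of 0.33 in KO and -0.24 in DKO mEFs. With the GC and length correction that difference was -0.04. Copg2 differed by 0.57 (edgeR adjusted p = 0.0958) and Kcnq1ot1 by 0.95 (edgeR adjusted p = 0.104).

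**Figure D4:**
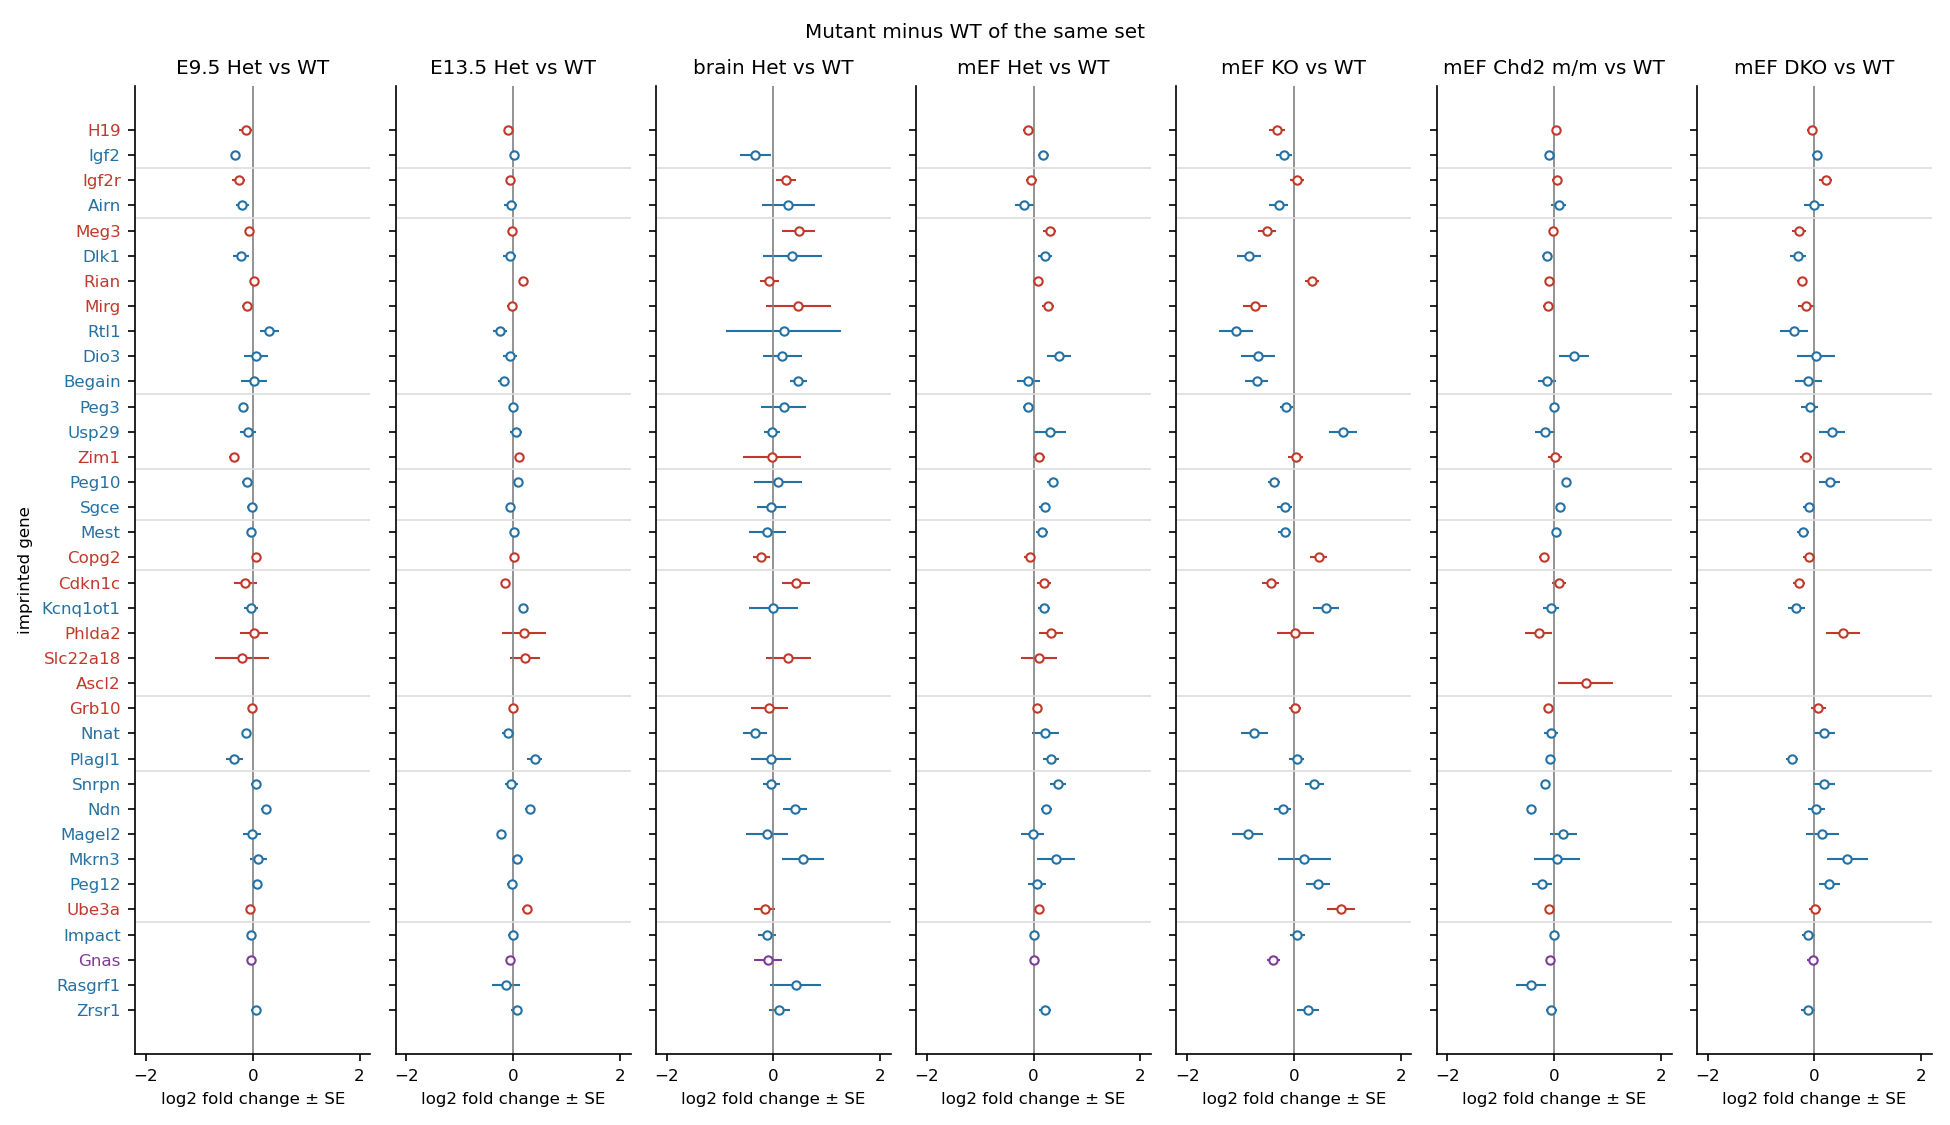
Log2 fold change with SE of each tested imprinted gene in 7 panels, Chaserr+/- against WT in E9.5 embryos, E13.5 embryos, brain and mEFs, and Chaserr-/-, Chd2m/m and Chaserr-/- Chd2m/m mEFs against the WT of their own set. All points are open because no edgeR adjusted p is under 0.05, and the SE is widest in brain, with a median of 0.33.

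The RIP asked which RNAs come down with CHD2. In the input libraries 29 of the 36 genes reached 1 TPM, led by Gnas at 2217 TPM and Mest at 1379 TPM, and H19, Peg12 and Zim1 were under 1 TPM. Against IgG, 3 of 34 genes tested were enriched with CHD2 and 0 depleted (edgeR), 8.82% where 11.5% of 14906 genes were called, 11.1% higher and 0.376% lower. DESeq2 called 10 of the 34 and 3597 of the 14906 genes, and by edgeR 11 of the 34 and 5136 of all genes had an unadjusted p under 0.05. The median log2 fold change of the imprinted genes was -0.51 against 0.02 over all genes.

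The 3 enriched RNAs were Ube3a, Peg10 and Kcnq1ot1. Ube3a had 56.5 and 29.6 TPM with CHD2, 7.18 and 8.27 TPM with IgG and 4.05 and 9.56 TPM in the input, a log2 fold change of 2.28 ± 0.42 over IgG (edgeR adjusted p = 0.0133, n = 2 against 2). Peg10 had 293 and 261 TPM, 25.5 and 101 TPM, and 79.6 and 100 TPM in the same order, a log2 fold change of 1.97 ± 0.54 (edgeR adjusted p = 0.0485). Kcnq1ot1 had 4.74 and 4.38 TPM, 0.81 and 1.52 TPM, and 0.14 and 0.47 TPM, a log2 fold change of 1.79 ± 0.45 (edgeR adjusted p = 0.0374). In scaled counts, CHD2 and IgG libraries did not overlap for 26 of the 34 imprinted genes and for 68.4% of all genes. For all 3 enriched RNAs both CHD2 libraries lay above both IgG libraries and both inputs. These calls rest on 2 libraries a group, since without either CHD2 library edgeR called 0 genes of the whole table, and without IgG library 2 it called 19 imprinted genes, 6 higher and 13 lower, and 6468 of 15573 genes, 3465 higher and 3003 lower. Impact just missed the threshold with 119 and 100 TPM against 47.8 and 49.1 TPM with IgG (log2 fold change 0.98, edgeR adjusted p = 0.0532), and Begain was at -0.998 (0.0778) and Mirg at -0.97 (0.0985).

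The libraries labelled Neuro2a also held transcripts of adult neurons and glia. All 8 neuron and glia markers were at 1 TPM or more, with a summed level of 1043 to 1247 TPM in the input, 2786 to 3159 TPM with CHD2 and 4368 to 5698 TPM with IgG. These markers were 3.2 to 6.78 times higher with IgG than in the input. Of the 29 imprinted genes at 1 TPM or more in the input, 14 had a ratio of IgG to input in that range, among them Rasgrf1, Snrpn, Meg3, Rian, Begain, Nnat and Ndn, with a median of 4.36. The other 15 were below it, with a median of 1.01, and 0 were above it. Ube3a at 1.14, Peg10 at 0.7 and Mest at 0.45 were in the lower group. The part of these markers in the comparison of CHD2 with IgG was not tested. The 2 IgG libraries were unlike each other for some genes, with Mest at 154 and 1091 TPM and Rtl1 at 0.22 and 9.37 TPM.

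**Figure D5:**
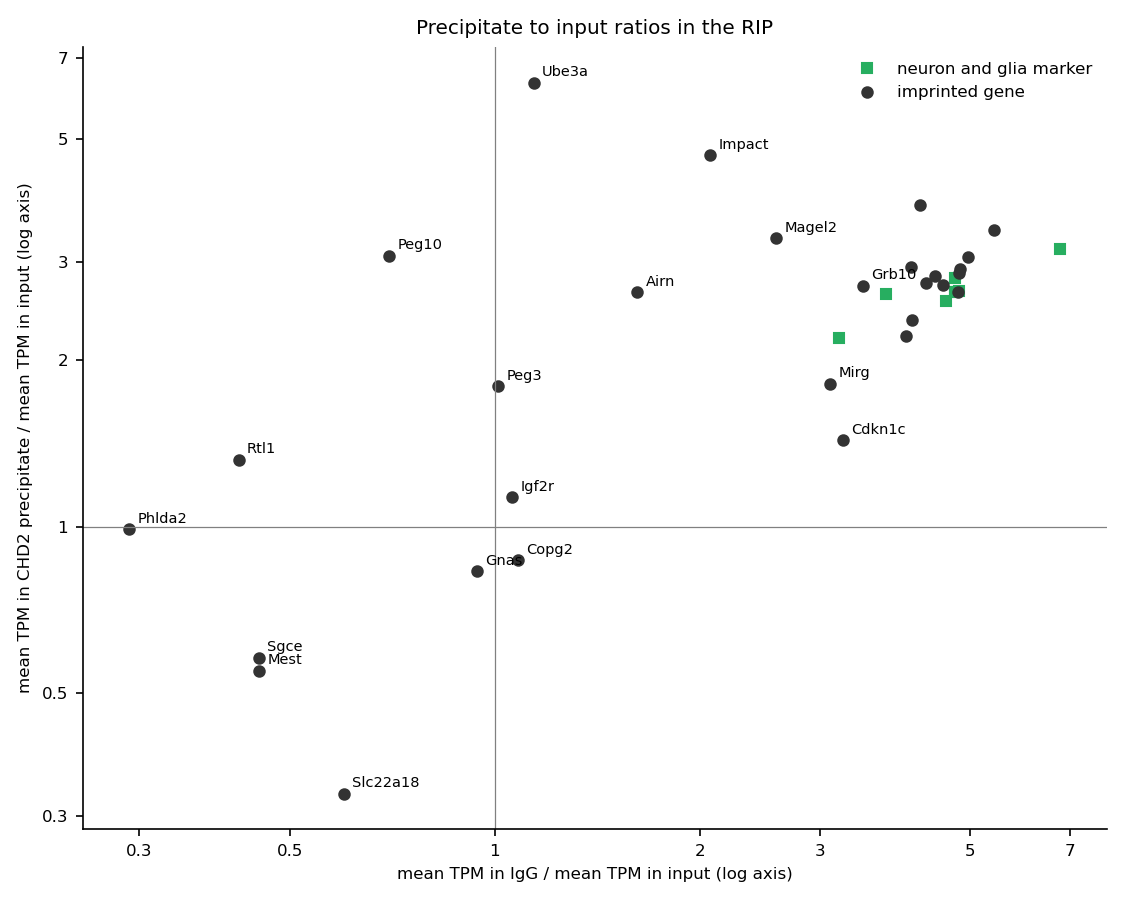
Ratio of mean TPM with CHD2 to input against ratio of mean TPM with IgG to input, on log axes, for the 29 imprinted genes at 1 TPM or more in the input (black) and the 8 neuron and glia markers (green). Imprinted genes form a group within the marker range of 3.2 to 6.78 on the IgG axis and a group below it, and Ube3a has the highest CHD2 ratio of these 29 at 6.32.

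ATAC-seq peaks in mEFs were then read at the annotated starts, which 35 of the 36 genes have in mm9. Libraries had 18661 to 93597 peaks, called in each library by the authors. A peak reached within 300 bases of a start in all 12 libraries for 8 genes, Zim1, Copg2, Cdkn1c, Plagl1, Peg12, Ube3a, Gnas and Zrsr1, of 35 (against 34.3% of 21992 genes). An overlap of 1 base was enough, so the highest point of a peak could lie outside. For Zrsr1 it lay at -1273 to -676 bases from the start and for Copg2 at -423 to -299. A peak was absent in all 12 for 5, Rian, Mirg, Rtl1, Usp29 and Slc22a18, against 31.7% of genes. Among genes with a mean of 1 TPM or more in WT mEFs, a peak in all 12 was found for 8 of 31 imprinted genes against 55.5% of 12643 genes, and none for 4 of 31 against 5.8%. Without the 2 libraries with the fewest peaks, WT replicate 2 and mutant replicate 1 of the DKO set, 18 of 35 had a peak in every library, against 55.4% of all genes. Zim1 had the highest median fold of the 35, with peaks 12.2 to 20.6-fold over local background in the 12 libraries, on a start with 13 CpG in the 250 bases shown above, and the peaks of Cdkn1c were 4.48 to 8.97-fold.

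Rian, Mirg and Rtl1 lie inside the Dlk1-Dio3 cluster downstream of or antisense to the start of Meg3, which had a peak in 10 libraries. Rian was a start without a peak despite 233 to 537 TPM in WT mEFs. The annotated start of Usp29 in this annotation is that of a short 3′ fragment. Ascl2 had a peak in 3 of 3 KO libraries and in 0 of 9 others, with a mean of 3.85-fold in KO. Its RNA was at 0.24 to 0.3 TPM in KO and 0.2 to 0.69 TPM in the WT mEFs of the same set. The KO libraries had 62610, 91121 and 93597 peaks in total, and their WT libraries 66967, 70516 and 58324. The part of these totals in the Ascl2 pattern was not tested. Mkrn3 had a peak in 3 of 3 KO libraries and their 3 WT. Its peak was found in 0 of 3 DKO libraries and in 1 of their 3 WT. Both genes were picked after their values were seen, and how many of all genes had either pattern was not counted. The peak lists hold no read counts per region, so peak heights were not tested between genotypes.

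Other imprinted genes and the factors that keep imprints were counted beside the 36. Of 41 further imprinted genes, 40 were in the tables. In each of the 7 mutant comparisons edgeR called 0 of the 29 to 36 tested, where it called at most 0.173% of all genes. For these lists only edgeR calls were counted. Between embryonic stages 18 rose and 9 fell of 36, where 42.1% of all genes rose and 38.3% fell. In brain 17 rose and 10 fell of 37, where 35.2% of all genes rose and 35.9% fell. Among 24 regulators of imprinting, edgeR called 0 in the 7 mutant comparisons either, against the same low share of all genes. Their levels in KO mEFs were not all alike those in WT. Suz12 was at a mean of 27.2 TPM against 12.9 TPM and Smchd1 at 23.6 against 13.4 TPM. Trim28 was lower, at 158 against 196 TPM. The median log2 fold change of the regulators in KO mEFs was 0.07 against -0.02 over all genes. Between E9.5 and E13.5, 16 of 22 fell and 3 rose, with a median log2 fold change of -0.79 against 0.06 over all genes. In brain 17 of 22 fell and 1 rose, with a median of -1.37 against -0.03. The shares of all genes that rose and fell are those just given. Uhrf1, which recruits the maintenance methyltransferase Dnmt1 to replicating DNA, fell by 1.65 and Dnmt1 by 1.16 on the log2 scale between the embryonic stages, and Dnmt3b, a de novo methyltransferase, by 2.60. Trim28, the corepressor at imprinting control regions, fell by 1.07 (edgeR adjusted p = 9.4e-08). Zfp57, which guides it there, rose by 1.12 (edgeR adjusted p = 1.99e-07) and then fell by 3.06 in brain. With CHD2 in the RIP, 8 of 22 regulators were enriched over IgG, where 11.1% of all genes were. Among them were Tet3 at a log2 fold change of 3.26 and Suz12 at 2.50. Without either CHD2 library edgeR called 0 genes of the whole table.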

How the data were processed

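RNA-seq libraries of embryos were made with the TruSeq stranded mRNA kit, those of mEFs with Lexogen SENSE, and RIP libraries from rRNA-depleted RNA. The authors quantified them with RSEM on RefSeq transcripts and deposited 3 values per gene and library, the expected count, TPM and FPKM, unscaled between libraries. The deposited FPKM were not used. The deposited ATAC-seq peaks were called by the authors with MACS2 per library on mm9, with a fold enrichment (a ratio), a score and −log10 p and q values, of which only the fold was used. Versions and the strand setting are not given in the sources used here. The 4C files were not used here.

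Expected counts were rounded and analysed over all genes in edgeR 4.0.16 (R 4.3.3; filterByExpr, TMM, quasi-likelihood test), mutant against the WT of its own set, without covariates. Genes were called at a Benjamini-Hochberg adjusted p under 0.05. DESeq2 1.42.0, filters, blocks and left-out libraries were alternatives, and scripts were tested on simulated data. Of 200 genes changed in the simulated counts, edgeR recovered 3.5% for CHD2 against IgG in RIP and 48% for Het against WT brain. Their median estimated changes were 1.474 and 1.475 log2 units. In the other comparisons 96.5 to 100% were recovered. A gene not called in RIP or in Het brain may thus still differ. TPM levels were not tested. At 7621292 counts or more per library, precision was set by 2 or 3 libraries per group. Imprinted genes were expressed at a mean of at least 1 TPM. Of the table entries, 90.4% matched a GENCODE mm9 gene. H19, Meg3, Mirg, Rtl1 and Snrpn share their entry with microRNA genes or Snurf, Kcnq1ot1 had no mm9 position, Airn and Igf2r, Copg2 and Mest, and Kcnq1ot1 and Kcnq1 overlap in antisense, and Nnat and Zrsr1 lie in introns of Blcap and Commd1, so reads of these may have been shared.

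Genes named in a comparison were all called ones up to 8, otherwise the 4 largest rises and falls (or widest ranges) at 1 TPM or more in the higher group, and up to 3 uncalled ones with the lowest p. Genes named beside these were chosen after their values were seen. The 36 genes, the marker lists and the lists of other imprinted genes and regulators were chosen with earlier results of these data known. Same-numbered Het and WT brains deviated together (correlations of 0.425 to 0.728), and the pairing also holds the kit. The replicate block called 0 of the imprinted genes there.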

Additional observations from a re-analysis of the deposited data

Results flagged for a closer look

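Igf2 stood on opposite sides of its WT libraries in 2 Chaserr+/- tissues. All 3 Het E9.5 embryos had less Igf2 than any WT E9.5 embryo (644 to 725 against 812 to 896 TPM, log2 fold change -0.32), and all 3 Het mEF libraries had more than any WT mEF library of their set (3434 to 3952 against 3034 to 3427 TPM, log2 fold change 0.18). Neither passed the test (edgeR adjusted p = 1 and 0.689), the tissues differ in kit, and the difference between them was not tested. In scaled counts, Het and WT did not overlap for 9.63% of all genes at E9.5 and 14.5% in mEFs.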

How the results depend on the processing

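Counts of imprinted genes called in the stage comparisons and between WT mEF sets moved by less than 1.5 times under every alternative that was run, and leaving out 1 library gave 32 to 33 genes between embryonic stages, 24 to 32 for brain and 28 to 31 between WT sets. The replicate block gave 33, 28 and, without the KO set, 26 genes. Counts of 0 moved to 1 with DESeq2 at E9.5, at E13.5 and in DKO mEFs, and to 1 with DESeq2, without a filter and with the replicate block in Chd2m/m mEFs. Leaving out any 1 library kept 0 at E9.5, at E13.5, in brain, and in Het, Chd2m/m and DKO mEFs. In KO mEFs the count was 11 with DESeq2, 3 without a filter, 3 with at least 10 counts in every library, 1 with the GC and length correction, 15 with all mEF libraries fitted together, and 0 to 8 with 1 library left out. For KO minus DKO it was 5 with DESeq2, 5 with all mEF libraries, and 0 to 2 with 1 library left out (2 without KO replicate 2, 1 without WT replicate 3 of the DKO set). In RIP it was 10 with DESeq2, 11 with the replicate block and 0 to 19 with 1 library left out. The number of starts with a peak in every ATAC-seq library was 18 instead of 8 without the 2 libraries with the fewest peaks, an alternative chosen after seeing the data, and 10 with 1000 bases on either side. The cause of these moves was not tested, except that fewer libraries were required in the last but one.

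Of the fold changes of genes named by the rule under an alternative, 581 kept their direction and side of the threshold, 37 passed it, 7 no longer passed it and 1 reversed: Rian in KO minus DKO, at -0.04 with the GC and length correction. Other imprinted genes also changed sign, among them, with no call in either fit, Rian (0.33 to -0.17) and Cdkn1c (-0.43 to 0.03) in KO mEFs with that correction and Sgce in brain between TruSeq libraries, while Mirg in brain went from -0.10 to a called 0.29 without the TruSeq brain. The 7 that no longer passed were Ube3a, Peg10 and Kcnq1ot1 in RIP without either CHD2 library and Dio3 between WT sets with the block, at 0.55. The median of all genes in RIP, 0.02, was -0.19 and -0.29 without CHD2 library 1 or 2 and -0.13 without IgG library 2, and the median range between WT sets, 0.91, fell to 0.68 with either the block or the GC and length correction. Same-numbered libraries did not deviate together outside the brain pairs, with correlations from -0.226 to 0.312, so the replicate number is only a name there. No block could be fitted for KO mEFs, whose WT libraries carry other numbers.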
